A study of Sus scrofa with 32 samples.

Results

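Near term, at gestational day 110, the livers of 4 runt pig fetuses were compared with those of 4 control fetuses on single-colour Agilent arrays, which read the brightness of Cy3-labelled RNA on each probe. These 8 arrays were taken by their labels from a series of 32 that also covers days 37, 50 and 70 with 4 runts and 4 controls each. All fetuses, controls included, came from gilts with 1 uterine horn and ovary surgically removed, so that the remaining horn was crowded; the crowding was the basis for growth-retarded offspring. Per the labels the RNA of each liver was handled individually, the day's samples came from 4 distinct gilts, and runt and control fetuses were littermate pairs. The runts are thus the small fetuses within crowded litters, the controls are their littermates and no uncrowded litter is among the groups. The comparison asks how liver RNA differs between a growth-retarded fetus and its littermates shortly before birth.

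The fetal liver makes the plasma proteins of the fetus and much of its insulin-like growth factor, and during most of gestation it is also a site of blood formation, which moves to the bone marrow toward birth. Near term it stores glycogen and switches on enzymes of glucose output, nitrogen disposal and detoxification for life after birth. Placental insufficiency and crowding are known to restrict growth and to spare the brain more than the liver.

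The 8 arrays were of like quality. Between 57.2% and 68.5% of spots were well above background, no spot was saturated, and the 75th percentile of intensity ran from 177 in runt 4 to 460 in runt 1. Correlations across features were 0.962 to 0.982 between control arrays, 0.971 to 0.979 between runt arrays and 0.963 to 0.984 across the groups, so runts were as like controls as controls were like each other. On the first principal component, with 30.8% of the variance, control 4 and runt 3 lay at one end and control 1 and runt 2 at the other, and the second (20.8%) set runt 4 apart at -76.5. Control 4, runt 3 and runt 4 lay on slides 1 to 3 and the other 5 on slides 4 to 9, so changes are also given by slide set, first within slides 1 to 3 and then within slides 4 to 9. Of 15 hepatocyte markers 7 were measured, and ALB, TF, TTR, APOA1, SERPINA1 and AMBP stood at or above the 98.9th percentile of features in these arrays, HNF4A at the 65.7th.

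Levels are log2 values relative to the array's 75th percentile, which is 0, and a change is runt minus control in log2, so 1 is a doubling. Of 28670 features tested, 4 passed at an adjusted p under 0.05 (limma, Benjamini-Hochberg), which is 0.0140% of them. Of these, 2 were higher in runts (0.00698%) and 2 were lower (0.00698%), each by more than 2-fold, and none has a gene symbol in the annotation used. At an unadjusted p under 0.05 there were 1261 features (4.40%), 755 higher (2.63%) and 506 lower (1.76%). The median standard error of a change was 0.24, and for 21545 features (75.1%) the 95% interval lay within 2-fold either way. Among the 1596 features with a symbol the smallest adjusted p was 0.127, 84 had an unadjusted p under 0.05 (5.26%), 59 of them higher (3.70%) and 25 lower (1.57%), and 1214 had an interval within 2-fold (76.1%). The median change over all features was 0.04, with 56.4% above 0. These values come from a fit that left the littermate pairing out. With the replicate number as a block, 6 features passed (0.0209%), 3 of them among the 4.

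The feature with the strongest loss in runts was probe A_72_P050291, designed on the expressed sequence BX921537. Its level was 4.66, 3.81, 4.18 and 4.10 in controls 1 to 4 and -0.19, -0.02, 0.70 and 1.42 in runts 1 to 4. Every control was thus far above every runt, by 13.1-fold in the mean. It fell by 3.71 (SE 0.59, adjusted p = 0.0113 in limma). In controls this RNA climbed over gestation, with day means of -1.52, -1.08, 1.31 and 4.19 at days 37, 50, 70 and 110, while the runt means were -1.49, -1.71, -0.37 and 0.48. The runt change was accordingly 0.04 at day 37, -0.63 at day 50, -1.68 at day 70 and -3.71 at day 110, and at the 3 earlier days it did not pass.

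Probe A_72_P208502, designed on BP447482, showed a like course. Its level was 2.80, 2.09, 2.90 and 2.74 in the 4 controls and -0.74, -0.68, -0.42 and 0.24 in the 4 runts. No runt reached the lowest control, and the means differed by 8.18-fold. It fell by 3.03 (SE 0.47, adjusted p = 0.0112 in limma). Control means were -1.25, -1.04, -0.29 and 2.63 over the 4 days and runt means -2.12, -2.08, -1.37 and -0.40, so the control gain between days 70 and 110 was larger than the runt gain. Runt changes at the earlier days were -0.87, -1.05 and -1.08, none of them passing. Both features were well above background on all 8 arrays. By slide set, with 1 control against 2 runts and then 3 against 2, the changes were -3.04 and -4.32 for BX921537 and -2.83 and -3.31 for BP447482. Leaving out control 4, runt 1 or runt 2 lifted the adjusted p of both above 0.05, to 0.0512 or more and at most 0.0741, with changes of at least 2.92 in size. With the 8 arrays fitted alone the adjusted p was 0.0502 for BX921537 and 0.0490 for BP447482.

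**Figure D1:**
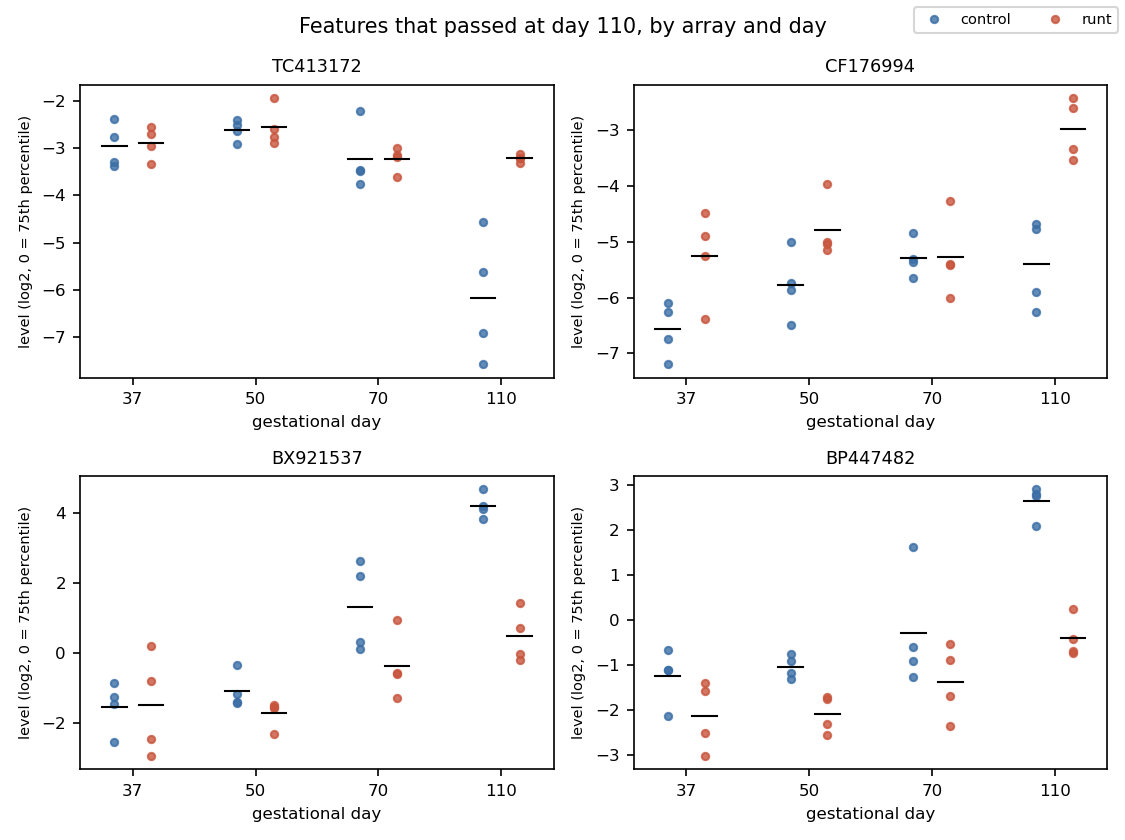
Level (log2, 0 is the array's 75th percentile) of the 4 features that passed at day 110, against gestational day; each point is 1 array, blue for control and red for runt, and black bars are group means. At day 110 the 4 runt arrays of BX921537 (-0.19 to 1.42) and BP447482 (-0.74 to 0.24) lie below all controls, and those of TC413172 and CF176994 lie above all controls.

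The features that rose were dim. Probe A_72_P437114, for the transcript cluster TC413172, was at -5.63, -7.58, -4.57 and -6.93 in the controls and at -3.21, -3.21, -3.12 and -3.31 in the runts. The runts were nearly equal to each other and the controls were spread widely below them, with only 2 of 4 controls well above background. It rose by 2.96 (SE 0.41, adjusted p = 0.00286 in limma), against controls partly at background. This SE pools the spread of all 8 groups of the series, not that of the day 110 arrays alone. At the earlier days its control means were -2.95, -2.61 and -3.23 and its runt changes 0.07 and 0.07 at days 37 and 50 and near 0 at day 70. The day 110 runts thus stood where all groups stood before, and the day 110 controls were low. It was the 1 feature of 28670 (0.00349%) whose runt change differed between day 110 and the mean of the other days after adjustment, by 2.92 (SE 0.47, adjusted p = 0.0431 in limma). With the replicate number as a block, with slide as a random block, with normexp, without a filter, with all 8 arrays required above background, on either slide set alone or when control 2, control 4 or any 1 runt was left out, 0 features passed that test. By slide set its change was 3.71 and 2.72, and it was 0.80 with normexp background correction, which compresses dim signals (adjusted p = 1.00 there). With the 8 arrays fitted alone, so without the spread of the earlier days, the change was the same and did not pass (adjusted p = 0.99997 in limma).

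Probe A_72_P400008, designed on CF176994, was at -4.68, -5.91, -4.76 and -6.27 in the controls and -2.60, -3.33, -3.52 and -2.41 in the runts. Here too the groups did not overlap, and 2 of 4 controls and all 4 runts were well above background. It rose by 2.44 (SE 0.43, adjusted p = 0.0356 in limma), and it entered the test through the day 110 runts alone, since no other group had 3 arrays above background. Its runt changes were 1.31 at day 37, 0.99 at day 50 and 0.02 at day 70, where at most 1 array of any group was well above background. With the replicate number as a block its adjusted p was 0.0646, with normexp correction its change was 0.81, and leaving out control 2, control 4, runt 1, runt 2 or runt 4 gave adjusted p-values from 0.0741 to 0.268. It also missed the threshold with the deposited value table (0.0732), quantile scaling (0.0711), no filter on dim probes (0.0563) and slide as a random block (0.0541), and with the 8 arrays fitted alone. Its changes within the slide sets were 3.30 and 2.15.

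None of the genes with a symbol passed, and those named next are non-overlapping ones with the smallest p in each direction. Over all features 328 had all runts above all controls (1.14%) and 143 all runts below (0.499%); among symbols these were 22 (1.38%) and 9 (0.564%).

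CCND2, cyclin D2, a partner of the kinases that open the cell cycle, was at 2.84, 3.48, 2.88 and 2.71 in controls and 3.74, 4.57, 4.17 and 4.45 in runts. Each runt was above each control, and the closest pair was control 2 and runt 1. The change was 1.26 (SE 0.26, adjusted p = 0.127), a 2.39-fold ratio of means, and a second CCND2 probe gave 1.12. With the replicate number as a block the adjusted p was 0.0127 at the same change, so CCND2 passed there. By slide set the change was 1.61 (slides 1 to 3) and 1.09 (slides 4 to 9). Control means went from 4.27 at day 37 to 3.46, 3.58 and 2.97, and runt means from 4.64 to 3.97, 3.86 and 4.23, so that runt changes at the earlier days were 0.38, 0.51 and 0.28. The day 110 change exceeded the mean of these by 0.87 (unadjusted p = 0.00659, adjusted p = 1.00 in limma).

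Most other cell cycle genes were below 0. Of 16 measured members of the list, 12 were below 0 and 4 above, with a median of -0.18 against 0.04 over all features and 0.07 over symbol features, and none passed. CCNB1, cyclin B1, had a change of -0.45 and CDK1, the mitotic kinase, one of -0.42. By slide set the list median was 0.22 and -0.24, and CCNB1 and CDK1 had changes of 0.21 and 0.16 on slides 1 to 3. Without control 3 the list median was -0.011, CCNB1 -0.13 and CDK1 -0.08, and without control 4 the list median was -0.33.

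DIRAS2, a small Ras-like GTPase, was at -4.33, -7.19, -5.39 and -5.66 in controls and -2.21, -3.11, -3.43 and -1.55 in runts. The groups were apart, but only 1 of 4 controls was well above background. Its fitted change was 3.07 (SE 0.61, adjusted p = 0.127), against controls mostly at background. Like A_72_P400008, DIRAS2 entered the test through the day 110 runts alone, since no other group had 3 arrays above background. At day 50 its change was 2.38, with 1 of 8 arrays there well above background, and at days 37 and 70 it was 0.56 and 0.02. Without control 1, or with arrays weighted by quality, DIRAS2 passed (adjusted p = 0.0366 and 0.0358 in limma); with normexp correction its change was 0.66.

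Spermadhesins are small secreted proteins best known from boar seminal plasma, where PSP-I and PSP-II form a heterodimer. The PSP-II and PSP-I genes are next to each other in the pig annotation, and sequences within the family are alike, so whether their probes share signal was not tested. PSP-I was at -3.08, -3.96, -4.86 and -4.89 in controls and -2.49, -1.78, -2.29 and -1.66 in runts. All runts were above all controls, with 3 of 4 controls well above background. The change was 2.14 (SE 0.51, adjusted p = 0.327), and the second PSP-I probe, with 2 of 4 controls well above background, gave 2.69 (SE 0.54, adjusted p = 0.117 in limma). With normexp the change of PSP-I was 0.95. Earlier runt changes of PSP-I were 0.91, 2.39 and 0.42, none passing.

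PSP-II was far brighter, at 4.33, 2.42, 2.56 and 1.42 in controls and 4.22, 4.97, 4.28 and 4.11 in runts. Control 1 lay among the runts and the other 3 controls below all of them. The change was 1.71 (SE 0.47, adjusted p = 0.584), and without control 1 it was 2.26 (adjusted p = 0.0469 in limma), which passed. Control means of PSP-II were 4.69, 4.60 and 5.59 at days 37, 50 and 70 and 2.69 at day 110, against runt means of 4.78, 5.42, 5.75 and 4.40. In the means the control level thus dropped between days 70 and 110 by more than the runt level. By slide set the changes were 2.77 and 1.49 for PSP-II and 2.91 and 1.83 for PSP-I.

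The other 2 measured spermadhesins were not well above background in any day 110 control and in 2 of 4 runts each. SPMI was at -7.93, -7.54, -7.55 and -6.89 in controls and at -1.31, -1.02, -7.46 and -5.56 in runts, so runts 1 and 2 alone were high. With controls at the background limit and runts at their measured values, the runt mean was 2.61-fold higher. Runts 3 and 4 lay below their own background limits, so this ratio rests on runts 1 and 2 and is not a lower bound. By slide set the fitted changes of SPMI were 0.39 and 6.50. AQN-1 was at -5.41, -4.62, -5.98 and -5.03 in runts, about the background limit, and gets no fold. Over the 4 measured members of the 14 listed the median fitted change was 1.94. It was 1.55 with SPMI taken against the background limit and AQN-1 at 0. At the earlier days the list median was 0.70, 2.58 and 0.97. None of the 4 passed.

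**Figure D2:**
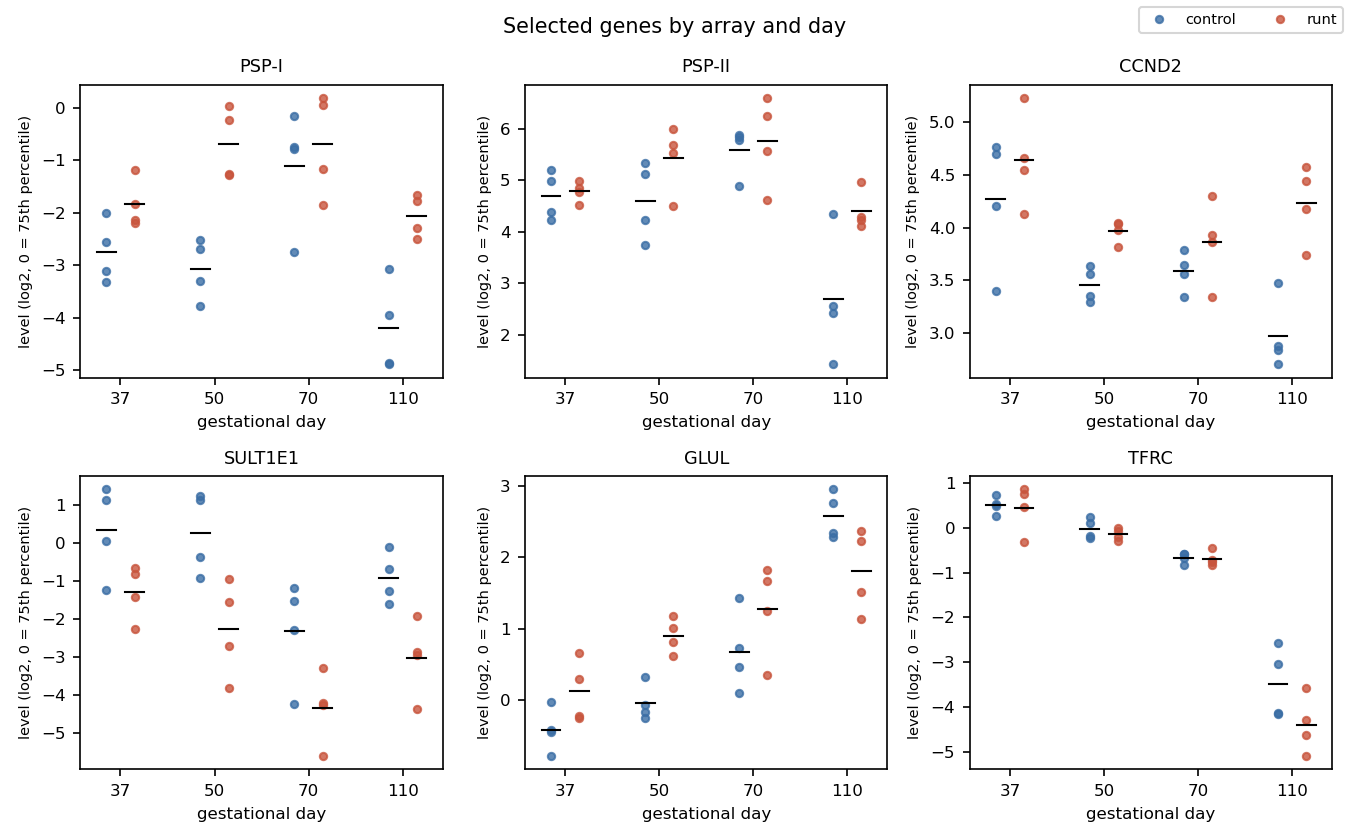
Level (log2, 0 is the array's 75th percentile) of 6 genes against gestational day; points are arrays, blue for control and red for runt, and black bars are group means. PSP-I and CCND2 runts lie above all controls at day 110, PSP-II control 1 (4.33) lies among the runts, SULT1E1 is lower in runts in the mean at each day, and GLUL runt means lie above the control means until day 70 and below at day 110.

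PLA2G1B, the pancreatic-type secreted phospholipase, was at -3.42, -5.10, -4.15 and -4.11 in controls and -2.12, -1.88, -3.31 and -1.64 in runts. The groups were apart by little, since runt 3 lay just above control 1. The change was 1.96 (SE 0.49, adjusted p = 0.398), and 0.79 with normexp. Its level went down over gestation in both groups, from 2.70 in controls and 2.82 in runts at day 37, and the runt change was 0.12, 0.58 and 0.94 at the earlier days. The list of pancreas genes had a median of 0.10 over 7 measured members and CELA2A, an elastase, at -1.36 (1.29 and -2.78 by slide set).

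The remaining genes of this kind with higher runt levels had changes from 0.40 to 1.05 and adjusted p-values from 0.629 to 0.905. Signalling and vascular genes among them were ANGPT2, an antagonist of the endothelial TIE2 receptor (0.56), KISS1R, the kisspeptin receptor (0.67), LEF1, a transcription factor of Wnt signalling (0.85), and ARHGEF2, a guanine nucleotide exchange factor (0.76). ATF4, the transcription factor of the amino acid and integrated stress response, had a change of 0.55, and SLC52A2, a riboflavin transporter, one of 0.40. MNAT1, a subunit of the CDK-activating kinase, stood at 0.59. CD79A, part of the B cell receptor, stood at 1.05, and was dim, with 3 of 4 controls well above background and a change of 0.34 with normexp. ANGPT2 runts were at 0.98, 0.67, 0.81 and 1.26 and controls at 0.42, 0.23, 0.40 and 0.42, while at the 3 earlier days its runt change was between -0.17 and 0.01.

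SULT1E1, the estrogen sulfotransferase, which inactivates estrogens, had the lowest change of the 9 genes with a symbol and all runts below all controls. Controls stood at -1.26, -0.11, -0.67 and -1.61 and runts at -2.86, -2.95, -1.92 and -4.38. The closest arrays were control 4 and runt 3. The change was -2.11 (SE 0.71, adjusted p = 0.905), with 3 of 4 runts well above background, and it was -1.07 with normexp. At days 37, 50 and 70 it was -1.63, -2.53 and -2.03. It was thus of like size at each day, and the difference between day 110 and the mean of the others was -0.05 (SE 0.83). Of the others with all runts below all controls, those reported had changes of -0.12 to -0.82: CAV2, a caveolin (-0.53), AK3, the mitochondrial GTP:AMP phosphotransferase (-0.28), the transcription factors NR4A3 (-0.82) and PRDM1 (-0.32), ANXA1, annexin A1 (-0.39), and ATP6V1A, a proton pump subunit (-0.12). Their unadjusted p-values ran from 0.0197 to 0.490 in the fit over all 32 arrays.

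**Figure D3:**
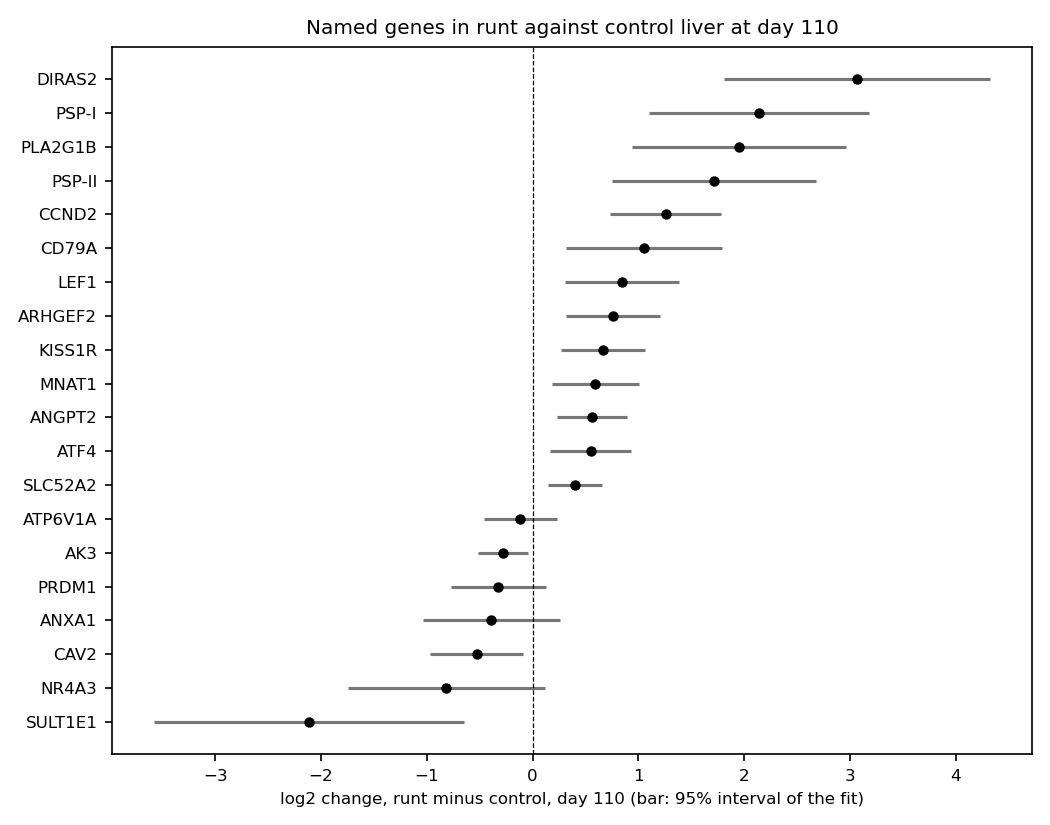
Change at day 110 (log2, runt minus control) of genes with a symbol named by the rule and of PSP-II, with the 95% interval of the fit over 32 arrays as bars. Intervals of DIRAS2, PSP-I, PLA2G1B and CCND2 lie above 0 and that of SULT1E1 below 0, and none of these genes passed after adjustment.

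Gene lists of liver functions and cell types were described by counts and medians. Of 1412 listed symbols in 41 lists, 492 were measured and 0 passed, beside 0 of 1596 symbol features and 4 of 28670 features (0.0140%). At an unadjusted p under 0.05, 1261 of all features (4.40%) were called. Of the 37 lists with at least 5 measured members, 24 had a median above 0 and 13 below.

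In the growth hormone and insulin-like growth factor axis, 10 of 15 measured genes were above 0, with a median of 0.14. IGF2, the main fetal growth factor of this family, was bright, and its brightest probe gave controls of 8.87, 8.44, 8.61 and 8.33 and runts of 8.87, 8.84, 8.23 and 9.04. The groups overlapped and the change was 0.18 (SE 0.20). The other 4 IGF2 probes gave larger changes, from 0.41 to 0.63, with unadjusted p-values from 0.000586 to 0.0264, and none passed (lowest adjusted p = 0.409 in limma). On probe A_72_P055876 all runts (7.68 to 8.13) were above all controls (6.98 to 7.48), and on the rest of these probes the groups overlapped. IGF1R, the receptor, was at -3.39, -3.87, -3.55 and -3.70 in controls and -3.20, -3.27, -3.00 and -3.30 in runts, a change of 0.44. Runts were all higher, and at the earlier days its changes were -0.13, -0.11 and -0.10. IGF1 itself had a change of -0.29, GHR, the growth hormone receptor, -0.11, and SOCS2, an inhibitor of that receptor, 0.43. IGFBP2, a binding protein of these factors, was at 7.97 ± 0.28 in controls and 8.32 ± 0.32 in runts (SD, n = 4 each). Its runt change was 0.35 at day 110 and 1.01, 1.44 and 0.56 at the earlier days. IGFBP3 had a change of 0.26.

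None of the plasma protein genes passed. Of 29 measured, 22 were above 0 with a median of 0.12. Albumin (ALB) was at 8.03, 7.65, 7.87 and 6.85 in controls and 7.24, 7.69, 6.95 and 6.51 in runts. The groups overlapped and the change was -0.50 (SE 0.59), where it had been -2.53 at day 37, -2.73 at day 50 and -0.36 at day 70. A second ALB probe gave -0.86 (SE 0.63) at day 110. AFP, the fetal counterpart of albumin, was at 9.02 ± 0.41 in controls and 9.17 ± 0.39 in runts. Of 21 complement genes 16 were below 0, with a median of -0.20, and by slide set that median was 0.15 and -0.33. C6, a component of the membrane attack complex, had a change of -0.54 and CLU, clusterin, one of -0.34.

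Genes of carbohydrate and lipid metabolism had medians near that of all symbol features. These were 0.11 for 9 genes of gluconeogenesis, 0.12 for 10 of glycolysis, 0.14 for 17 of fatty acid oxidation, 0.14 for 10 of fatty acid and triglyceride synthesis and 0.08 for 22 of lipid transport and storage. PLIN2, the coat protein of lipid droplets, was at 1.51, 1.33, 1.03 and 0.82 in controls and 1.82, 1.93, 1.49 and 1.71 in runts. Only runt 3 fell within the control range, just below control 1, and the change was 0.56. FABP1, the liver fatty acid binding protein, was at 6.44, 7.32, 7.14 and 5.51 against 6.01, 6.36, 5.30 and 5.79. The groups overlapped, the change was -0.74, and within slides 1 to 3 it was 0.03. CYP7A1, which starts the conversion of cholesterol to bile acids, had a fitted change of 0.93 with 1 control and 3 runts well above background, and by slide set it was -0.03 and 1.78 (0.35 with normexp). APOA4 had one of 0.00 (SE 0.76).

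GLUL, glutamine synthetase, which fixes ammonia around the central vein, was at 2.29, 2.95, 2.34 and 2.75 in controls and 2.23, 1.13, 2.36 and 1.51 in runts. Runts 1, 2 and 4 were below all controls, runt 1 by little, and runt 3 was within their range. The change was -0.77 (SE 0.31, adjusted p = 1.00), where it had been 0.54, 0.94 and 0.59 at days 37, 50 and 70. The difference between day 110 and the mean of those was -1.46 (SE 0.36, unadjusted p = 0.000334, adjusted p = 1.00 in limma), so this difference did not pass. Of 5 measured urea cycle and ammonia genes 4 were below 0, with a median of -0.28. GOT1, an aspartate aminotransferase, had -0.40, ARG1, arginase, -0.28, and OTC, ornithine transcarbamylase, -0.12. By slide set the list median was 0.08 and -0.34.

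Among 26 measured genes of xenobiotic metabolism 15 were below 0, with a median of -0.08. GSTA1, a glutathione transferase, was at 3.88, 5.78, 6.98 and 6.41 in controls and -0.25, 5.07, 5.36 and 5.62 in runts. Runt 1 stood far below all other arrays, and the change was -1.82 (SE 0.94), which was -0.42 without runt 1 and by slide set -0.92 and -3.14. Glucocorticoid-related genes had a median of -0.06 over 8, and HSD11B1, which regenerates cortisol, was at 5.76 ± 0.35 in controls and 5.73 ± 0.25 in runts. Among 11 thyroid and retinoid genes 8 were above 0, with a median of 0.27, RXRG, a retinoid X receptor, at 0.29. Stress genes of amino acid shortage and the unfolded protein response had a median of 0.17 over 6, with ATF4 at 0.55 and ASNS, asparagine synthetase, at 0.36. Hypoxia genes had a median of 0.12 over 12, with P4HA1, a prolyl hydroxylase of collagen, at 0.52 and EPAS1, a hypoxia-inducible factor, at 0.37.

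**Figure D4:**
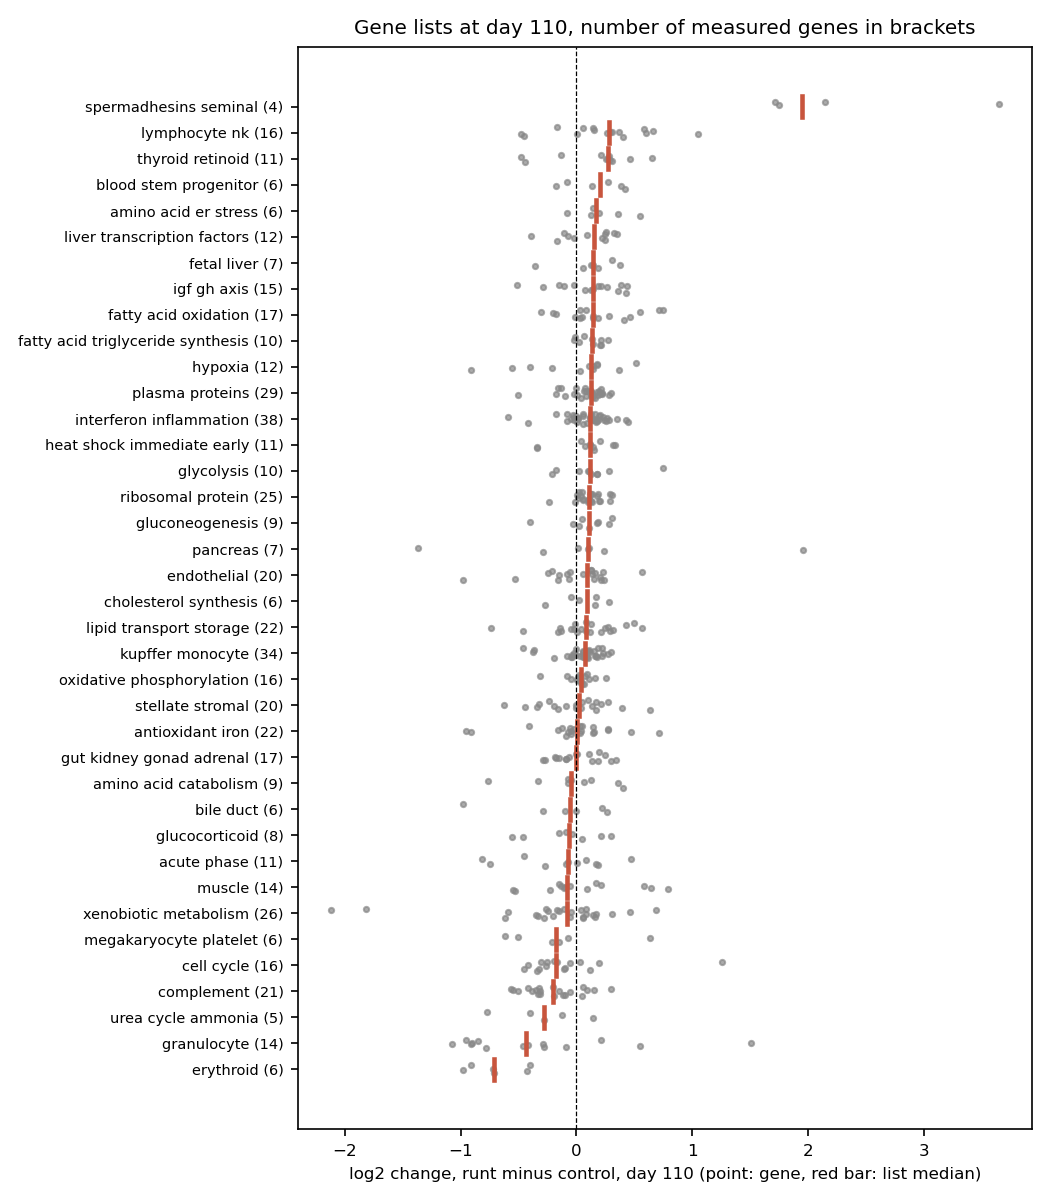
Change at day 110 (log2, runt minus control) of the measured members of each list with at least 4 of them; grey points are genes, red bars list medians, and the number of measured genes is in brackets. Most medians lie near 0, erythroid (-0.71) and granulocyte (-0.44) markers have the lowest. The 4 spermadhesins are drawn at fitted changes, although SPMI and AQN-1 were not above background in any control.

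Of the lists with at least 5 measured members, erythroid and granulocyte markers had the medians farthest from 0. In whole liver, fewer cells of a type and less RNA per cell cannot be told apart. All 6 measured erythroid markers of 40 listed were below 0, with a median of -0.71, among them AQP1, the water channel (-0.98), TFRC, the transferrin receptor (-0.91), HBE1, embryonic globin (-0.72), RHCE, a blood group protein (-0.71), and EPOR, the erythropoietin receptor (-0.41). None passed. TFRC was at -4.13, -4.16, -2.57 and -3.05 in controls and -5.08, -3.57, -4.29 and -4.61 in runts, with 4 controls and 2 runts well above background, and its change was -0.16 with normexp. Controls 3 and 4 were above all runts and controls 1 and 2 among them. AQP1, which is also on the endothelial and bile duct lists, was at -3.39, -3.70, -2.24 and -4.89 in controls and -4.84, -4.35, -4.46 and -4.49 in runts. By slide set its change was 0.42 and -1.48. The median deviation of the 6 genes was 0.42, -0.15, 1.40 and -0.61 in controls and -0.62, 0.23, -0.25 and -0.58 in runts. Controls 1 and 3 thus lay above all runts, control 3 by far the most. Control 2 was among the runts and control 4 as low as the lowest of them. The summed linear level of the 6 ran from 9.02 to 35.0 in controls and from 7.94 to 16.6 in runts. By slide set the list median was 0.19 and -0.69, and without control 3 it was -0.37. Embryonic globin was lower near term than early in gestation in both groups, the mean of HBE1 going from 4.50 at day 37 to -1.74 at day 110 in controls and from 4.90 to -2.46 in runts.

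Granulocyte markers were below 0 for 11 of 14 measured, with a median of -0.44, and none passed. Members shared with other lists include ARG1 (urea cycle) and LYZ, lysozyme (Kupffer cell and monocyte), so not all are particular to granulocytes. PR39, an antibacterial peptide of neutrophils, was at 4.61, 4.80, 4.83 and 5.12 in controls and 4.69, 3.80, 2.88 and 3.69 in runts, a change of -1.07. Runt 1 lay within the control range and the other 3 runts below it. The median deviation of the 14 genes was 0.05, 0.53, 0.56 and 0.14 in controls and 0.39, -0.12, -1.10 and -0.28 in runts. Runt 3 was lowest, and without it the list median was -0.22. Summed levels were 208 to 446 in controls and 218 to 380 in runts. The medians within the slide sets were -0.50 and -0.32, and at days 37, 50 and 70 the list median was 0.14, 0.13 and -0.42.

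Lymphocyte and natural killer markers were mostly above 0, with 13 of 16 measured above 0 and a median of 0.28. CD79A had 1.05 and FYN, a kinase not limited to these cells, 0.29, and 0 passed. A second FYN probe gave -0.08, and with normexp the change of FYN was 0.05. The 16 genes were dim, with array medians of -3.97 to -3.13 in controls and -3.60 to -2.97 in runts, and summed levels were 2.62 to 3.21 and 2.88 to 3.58. Runt 4 had the highest median deviation at 0.51. Megakaryocyte and platelet markers had a median of -0.18 over 6, with 5 below 0 and 1 above. PPBP, a platelet chemokine, was at -0.62 and ITGB3, a platelet integrin, at -0.51 (0.13 and -0.91 by slide set). The member above 0 was TBXAS1, at 0.63. Blood stem and progenitor markers had a median of 0.20 over 6, GATA2, a progenitor transcription factor, at 0.42. Kupffer cell and monocyte markers had a median of 0.07 over 34, endothelial markers 0.09 over 20, stellate and stromal markers 0.02 over 20 and bile duct markers -0.05 over 6. CD14, a monocyte and Kupffer cell receptor, was at 5.32 ± 0.16 in controls and 5.49 ± 0.16 in runts. Muscle markers had a median of -0.08 over 14, and markers of gut, kidney, gonad and adrenal one near 0 over 17.

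**Figure D5:**
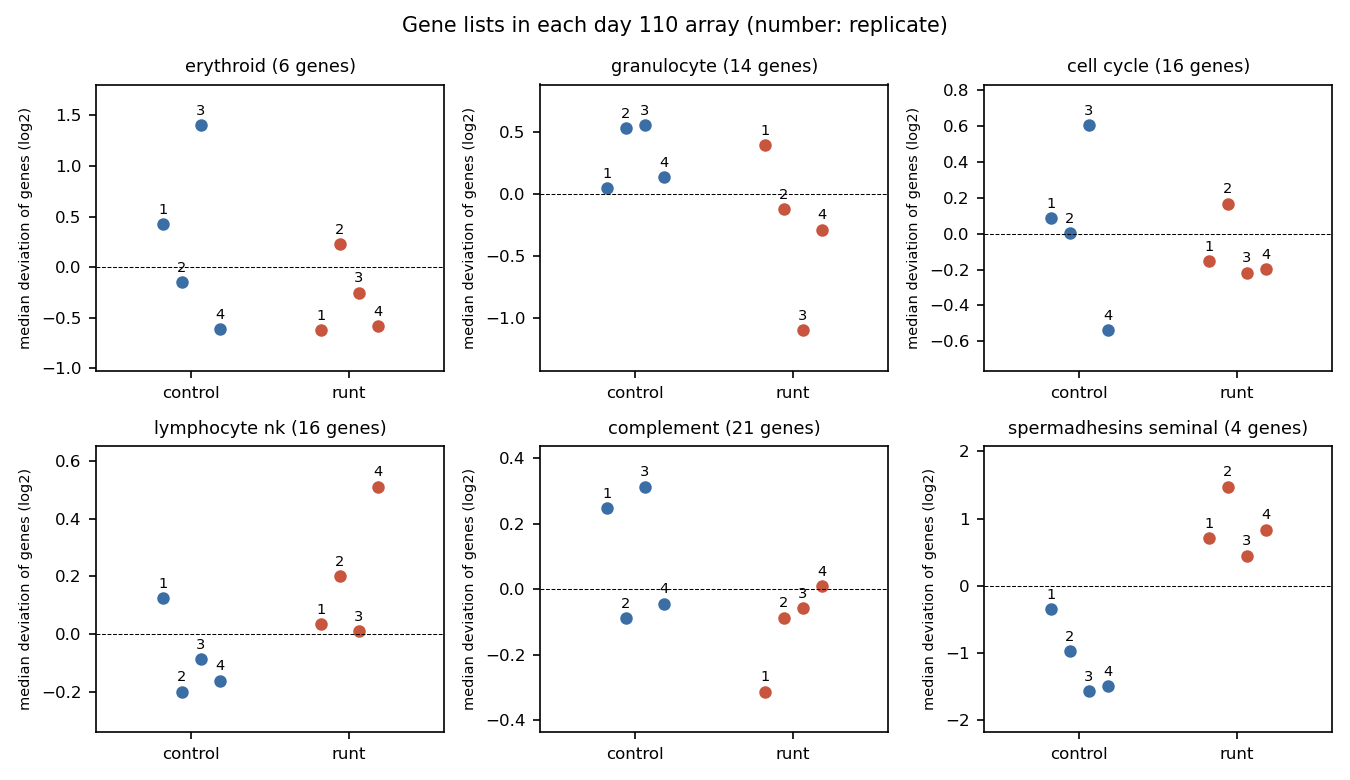
Median deviation (log2) of list members from their mean over the 8 arrays, for each control (blue) and runt (red) array at day 110, with the replicate number beside each point. Erythroid, granulocyte, cell cycle, lymphocyte and complement lists overlap between groups, and the 4 spermadhesins, 2 of them not above background in controls, have all runts above all controls.

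Ribosomal protein genes had 23 of 25 measured above 0, with a median of 0.11. Interferon and inflammation genes had 28 of 38 above 0, with a median of 0.12, which was -0.09 within slides 1 to 3. Both medians lie close to the 0.07 of all symbol features.

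By the same test the runt and control livers gave 0 calls at day 37, 19 at day 50 (0.0663%) and 0 at day 70, beside 4 at day 110. The difference of the runt change between day 110 and the mean of the other days was tested over all features, and 1 passed (0.00349%), with 724 at an unadjusted p under 0.05 (2.53%). With the replicate number as a block, 6 features passed at day 110 (0.0209%), 3 of them among the 4, and 1894 had an unadjusted p under 0.05 (6.61%).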

How the data were processed

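Liver RNA was hybridised to 1-colour arrays. Per the file headers the deposited intensity of each spot is the background-subtracted processed signal of Agilent Feature Extraction 10.7.3.1. The authors also deposited log2 values made with Partek, per the submitters' processing notes, used as an alternative. Processed signals were scaled to each array's 75th percentile in log2, after control spots and outlier spots were left out, and spots of a probe were averaged; 23 values at day 110 are missing. A probe was tested if well above background on at least 3 of 4 arrays of any group. Slides were numbered 1 to 9 in barcode order and all day 110 arrays were read in 1 scan. Of 43603 probes, 2683 matched the Sscrofa11.1 annotation by RefSeq accession, giving 1904 symbols, and the brightest probe stood for a gene. limma 3.58.1 (R 4.3.3) fitted 8 group means over 32 arrays, with 24 residual degrees of freedom. Tests were two-sided, with Benjamini-Hochberg over all features. The littermate pairing was left out of this fit, and only the replicate block modelled it, by replicate number. Genes with a symbol were named by passing or, where fewer than 12 passed in a direction, by the smallest p among those with non-overlapping arrays and the higher group well above background on all 4 arrays; by list membership (up to 4 of smallest p); or from a panel of 27 genes, 23 measured. Features without a symbol are the 2 rises and 2 falls that passed. The further IGF2 probes were singled out after their values were seen. Some genes these rules name are not reported here. Members and lists were chosen with earlier results of these data known. The labels' protocols describe littermate pairs but do not say that replicate numbers mark them. Same-numbered runts and controls had correlated deviations (0.140, 0.139, 0.176 and 0.192). Differently numbered ones ran from -0.488 (control 1 and runt 3) to 0.338 (control 1 and runt 2), so these values do not settle the pairing. The replicate block took the numbers to mark the pairs. The alternatives were the deposited table, normexp (on median signals, in place of the mean signals first planned), quantile scaling, filters, blocks, slide sets, array weights, probe averaging and leaving out each array. The fits were tested on simulated data.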

Additional observations from a re-analysis of the deposited data

Results flagged for a closer look

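Of 98 sets of 4 arrays examined for a single array far from the other 3, 5 had one, and chance gives about 1 in 20. ANGPT2 was at 0.23 in control 2 against 0.40 to 0.42 in the other controls. CD79A was at -3.39 in runt 4 against -4.18 to -4.06 in the other runts, and CAV2 at 1.20 in control 3 against 1.58 to 1.64. HSD11B1 was at 6.11 in runt 4 against 5.57 to 5.65. APOA4, an intestinal and hepatic apolipoprotein, was at 4.61 in control 3 against 1.08 to 1.62, and the same-numbered runt 3 was also high at 4.11 against 1.06 to 1.86 in the other runts. The runt change of A_72_P437114 (TC413172) was larger at day 110 than the mean of the other days by 2.92 (adjusted p = 0.0431 in limma). That call was lost, leaving 0, with the replicate block, slide as a random block, normexp correction, no filter on dim probes, all 8 arrays required above background or either slide set alone, and when control 2, control 4 or any 1 runt was left out.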

How the results depend on the processing

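Against 4 features passing, the count was 2 with normexp correction (also at 2-fold or more), 2 when all 8 arrays had to be above background, 1 with the 8 arrays alone, 2 within slides 4 to 9 (0 shared with the 4) and 11 with array weights. Leaving out 1 array gave 1 to 11 (11 without control 1, 8 without runt 3, 1 without control 4, runt 1 or runt 2). The requirement on all 8 arrays, the strict filter, removed both rising features before testing, so it did not retest them. The cause of the other shifts was not tested. With the replicate block 6 passed. The replicate block made CCND2 pass and A_72_P400008 miss, and changed no other call on the named genes. The count for the difference between days was 1, and 0 with normexp, no filter, the strict filter, slide as a random block or the replicate block, and 0 to 1 with 1 array left out. Within slides 1 to 3 list medians were 0.15 for complement, 0.069 for liver transcription factors (0.040 with normexp), 0.24 for glycolysis, 0.39 for lipid transport, 0.35 for cholesterol synthesis, 0.083 for xenobiotic metabolism, 0.077 for the urea cycle, 0.16 for amino acid catabolism, 0.22 for cell cycle, 0.19 for erythroid, 0.18 for megakaryocyte, 0.57 for lymphocyte, 0.32 for bile duct, 0.64 for pancreas, 0.31 for gut and kidney and -0.088 for interferon genes; within slides 4 to 9 fatty acid oxidation was -0.067. With 1 array left out, medians ran from 0.075 to 0.24 for transcription factors, 0.089 to 0.20 for glycolysis, -0.24 to 0.045 for xenobiotic metabolism and -0.095 to 0.13 for endothelial genes. For the 4 passing features, the non-overlapping named genes and PSP-II, 550 of 587 changes under alternatives kept their direction and side of the threshold. Of the rest, 31 lost the pass, 6 gained it and 0 reversed. All 31 losses fell on the 4 passing features, since the other genes had no pass to lose. The 550 are thus mostly genes that stayed short of the threshold and say little on how firm the 4 calls are. For the 149 other named genes the sign differed in 84 of 3410 values. Slide sets hold few arrays, and dim probes such as SPMI are limited by background.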
